A study of Mus musculus with 4 samples.

Results

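The cells described here are the mitotic cells of the stomach isthmus, the zone between the pits and the base of a gastric gland. They were taken as the cells that the authors' deposited annotation places in cluster 4, one of its 10 clusters, and were 385 of the 4449 cells of 4 libraries. All libraries came from stomach epithelial cells of 14-week-old mice of the Rosa26iH2b-GFP strain, in which a histone 2B fused to green fluorescent protein stands under a doxycycline-inducible TRE3G promoter and the Tet-on 3G activator is made constitutively at the Rosa26 locus. Every mouse received doxycycline for 4 weeks and was then chased without it for 6 weeks, and all were female according to the methods. Epcam-positive cells that still carried GFP (GFP+) gave the libraries GFP+ 1 and GFP+ 2, and Epcam-positive cells sorted without regard to GFP (Epcam+) gave Epcam+ 1 and Epcam+ 2. Sorted cells from 2 mice were combined for loading, and whether the libraries of a sort hold cells of separate animals is not given in the sources used here, so p-values measure only the spread between libraries, which may be technical. The sort removed Cd45- and Cd31-positive cells, and the authors called clusters 3 and 4 isthmus, cluster 0 neck, clusters 1 and 5 chief, cluster 2 pit, clusters 6 and 7 endocrine, cluster 8 parietal and cluster 9 tuft.

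The isthmus holds the dividing cells of a corpus gland, whose progeny move up to become mucous pit cells or down to become mucous neck cells. A dividing cell copies its DNA in S phase with helicases, polymerases and nucleotide-synthesis enzymes, and then in G2 and mitosis makes cyclin B, spindle motors, kinetochore proteins and the ubiquitin ligase parts that end mitosis. Much of the mitotic set is transcribed late in the cycle, under the MuvB complex with B-Myb and FoxM1, while many replication genes are driven earlier by E2F factors.

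Cluster 4 held 11 of 467 cells in GFP+ 1, 8 of 444 in GFP+ 2, 193 of 1642 in Epcam+ 1 and 173 of 1896 in Epcam+ 2. The median depth of its cells was 61321 and 70030.5 UMIs (unique molecular identifiers, the molecules counted) in the GFP+ libraries and 46175 and 44665 in the Epcam+ libraries. In cluster 3, the other isthmus cluster, it was 41443 and 37019 in the Epcam+ libraries. The libraries held 35571141 to 79455225 UMIs each, and GFP+ 2 stood apart with a median of 104840 UMIs per cell, against 31735 to 45119 in the others, having 57.9% of its cells in chief cluster 1. Barcodes shared between libraries numbered 4, with 0 in cluster 4. Scrublet called 5 of the 385 cells doublets (1.30%), against 1.69% of all cells. Levels below are counts per 1000000 UMIs (CPM), summed over the cells of a library and cluster, without further scaling unless TMM (edgeR's trimmed-mean scaling) is named.

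The 5 marker genes given for these cells were each higher in cluster 4 than in any other cluster in both Epcam+ libraries. Mki67, the gene of the proliferation antigen Ki-67 that coats mitotic chromosomes (chr7:135689784-135716361 on GRCm38, minus strand), stood at 458 and 469 CPM in GFP+ 1 and GFP+ 2 and 556 and 589 CPM in Epcam+ 1 and Epcam+ 2. In cluster 3 of the Epcam+ libraries it stood at 108 and 129 CPM. All 4 cluster 4 values thus lay above both cluster 3 values. Top2a, the topoisomerase that untangles replicated chromosomes (chr11:98992943-99024189, minus strand), was at 509 and 340 CPM in GFP+ and at 495 and 515 CPM in Epcam+ cells of cluster 4, against 134 and 134 CPM in Epcam+ cells of cluster 3. Birc5, the survivin subunit of the chromosomal passenger complex (chr11:117849251-117855743, plus strand), was at 499, 419, 460 and 466 CPM in GFP+ 1, GFP+ 2, Epcam+ 1 and Epcam+ 2 of cluster 4, against 70.4 and 75.7 CPM in cluster 3. Hmgb2, a chromatin-bending protein (chr8:57511907-57515999, plus strand), reached 2341, 1417, 2090 and 2154 CPM in the same libraries of cluster 4, against 634 and 651 CPM in cluster 3. Stmn1, the microtubule-destabilizing stathmin used as an isthmus stem cell marker (chr4:134468320-134473843, plus strand), was at 988, 566, 816 and 875 CPM in cluster 4, against 401 and 501 CPM in cluster 3. GFP+ 2 was the lowest of the 4 cluster 4 libraries for Top2a, Birc5, Hmgb2 and Stmn1. Since the clusters were built from such genes, these levels and all others set against other clusters are given as description, without a test.

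To show the regulatory letters that these genes share, the 250 bases before the transcription start were searched for CCAAT, the letters bound by NF-Y, and for TTTGAA or TTCGAA, the letters of the cell cycle homology region to which MuvB complexes bind, each on both strands. The sequences are those of RefSeq on GRCm38.p6. Printed are the 6 most abundant mitotic genes of cluster 4 whose promoters hold both kinds of letters, so that their presence here follows from the choice. All run 5′ to 3′ toward the start, with both kinds of letters in capitals.
Hmgb2: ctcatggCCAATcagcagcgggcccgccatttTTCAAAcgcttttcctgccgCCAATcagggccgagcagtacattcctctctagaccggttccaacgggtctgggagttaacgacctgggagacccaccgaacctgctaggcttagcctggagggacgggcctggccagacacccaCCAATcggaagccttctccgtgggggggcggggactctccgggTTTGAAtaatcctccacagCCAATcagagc
Tubb4b: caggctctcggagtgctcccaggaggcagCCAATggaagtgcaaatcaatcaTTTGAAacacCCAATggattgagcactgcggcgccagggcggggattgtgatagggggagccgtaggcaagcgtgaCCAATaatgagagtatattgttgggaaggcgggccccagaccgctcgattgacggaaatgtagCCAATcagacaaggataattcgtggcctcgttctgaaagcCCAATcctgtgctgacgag
Ube2c: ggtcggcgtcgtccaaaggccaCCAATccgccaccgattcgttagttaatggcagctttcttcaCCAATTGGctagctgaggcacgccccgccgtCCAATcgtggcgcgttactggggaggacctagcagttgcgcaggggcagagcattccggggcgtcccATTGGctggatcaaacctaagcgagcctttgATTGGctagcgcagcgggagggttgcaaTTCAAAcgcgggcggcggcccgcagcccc
Mki67: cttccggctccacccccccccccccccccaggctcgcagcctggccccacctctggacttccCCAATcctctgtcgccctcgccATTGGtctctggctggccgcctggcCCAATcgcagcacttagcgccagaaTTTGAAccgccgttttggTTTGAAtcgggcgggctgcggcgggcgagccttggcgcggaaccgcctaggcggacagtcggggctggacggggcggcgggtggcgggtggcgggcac
Top2a: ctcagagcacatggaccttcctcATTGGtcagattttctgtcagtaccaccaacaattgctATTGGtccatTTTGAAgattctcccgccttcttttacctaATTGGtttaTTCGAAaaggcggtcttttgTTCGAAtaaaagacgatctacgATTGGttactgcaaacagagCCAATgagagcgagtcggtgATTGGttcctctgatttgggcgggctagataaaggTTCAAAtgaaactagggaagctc
Cdk1: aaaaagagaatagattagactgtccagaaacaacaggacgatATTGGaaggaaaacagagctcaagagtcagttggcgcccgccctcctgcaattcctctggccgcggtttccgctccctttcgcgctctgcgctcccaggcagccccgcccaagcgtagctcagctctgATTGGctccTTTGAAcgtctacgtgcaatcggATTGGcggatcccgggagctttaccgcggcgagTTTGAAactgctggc
The Hmgb2 promoter lies at chr8:57511593-57511842 on the plus strand and holds CCAAT 4 times, and its last cell cycle letters begin 30 bases before the start. That of Tubb4b, a beta-tubulin of the spindle, lies at chr2:25224703-25224952 on the minus strand and holds CCAAT 5 times. Ube2c encodes the ubiquitin-conjugating enzyme of the anaphase-promoting complex, and its promoter, at chr2:164769679-164769928 on the plus strand, holds CCAAT 6 times, once overlapping its own reverse, and the cell cycle letters once, beginning 29 bases before the start. The promoters of Mki67 (chr7:135716380-135716629), Top2a (chr11:99024190-99024439) and Cdk1 (chr10:69352913-69353162), all on the minus strand, hold CCAAT 3, 6 and 3 times and the cell cycle letters 2, 4 and 2 times. In Top2a and Cdk1, the last of these begin 23 and 15 bases before the start. Those of Mki67 and Tubb4b lie farther off, the last beginning 98 and 198 bases before the start.

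Across the lists, CCAAT was present in 14 of 15 promoters of mitotic kinases and cyclins (93.3%) and in 21 of 31 of spindle and cytokinesis genes (67.7%), against 33.9% of all 32851 promoters. It was not particular to mitotic lists, with 9 of 17 chromosome structure promoters (52.9%), 22 of 38 DNA replication promoters (57.9%), 7 of 12 of Atf4 targets (58.3%) and 7 of 13 of heat shock genes (53.9%). The cell cycle letters were found in 10 of 17 promoters of chromosome structure genes (58.8%), 13 of 31 of spindle genes (41.9%) and 7 of 15 of anaphase genes (46.7%), against 17.2% of all. Kinase and cyclin promoters held them in 5 of 15 (33.3%) and kinetochore and centromere promoters in 6 of 25 (24.0%). Cycle transcription factors and parietal markers reached like shares, at 6 of 16 and 3 of 8 promoters (37.5% each). Chief product promoters held them in 3 of 10 (30.0%), DNA replication promoters in 6 of 38 (15.8%) and heat shock promoters in 0 of 13. Both kinds together stood in 10 of 31 spindle promoters (32.3%), 5 of 15 kinase and cyclin promoters (33.3%) and 5 of 38 replication promoters (13.2%), against 6.02% of all. The letters TTTCCCGC, TTTGGCGC, TTTCGCGC or TTTGCCGC, written for E2F sites, showed another order, with 8 of 38 replication promoters (21.1%) and 6 of 16 of cycle transcription factors (37.5%), but 1 of 31 spindle promoters and 1 of 15 kinase and cyclin promoters, against 1.86% of all. Chromosome structure promoters held the E2F letters in 2 of 17 (11.8%). These matches describe the letters of the window and not binding. Of the genes listed, 15 of 22 kinases and cyclins, 28 of 31 spindle genes and 31 of 39 replication genes had a promoter in the table.

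Of the genes with at least 1 UMI, 758 of 17691 (4.28%) had their highest CPM in cluster 4 in both Epcam+ libraries, and 18 (0.102%) had their lowest there. Among the 22 kinases and cyclins that bring a cell into mitosis, 21 were highest in cluster 4, with a median log2 ratio over cluster 3 of 2.06, whereas the median over all genes was 0. Cyclin B1 (Ccnb1), the partner of the mitotic kinase Cdk1, stood at 214, 108, 167 and 178 CPM in GFP+ 1, GFP+ 2, Epcam+ 1 and Epcam+ 2, against 8.81 and 12.5 CPM in cluster 3. Cdk1 itself differed less between the 2 isthmus clusters, at 325, 195, 310 and 343 CPM in cluster 4, against 108 and 120 CPM in cluster 3. Polo-like kinase 1 (Plk1), which drives centrosome maturation and mitotic entry, reached 97.6 and 94.5 CPM in the Epcam+ libraries of cluster 4, against 7.64 and 7.03 CPM in those of cluster 3. The spindle pole kinase Aurka was at 81.9 and 84.8 CPM there, against 7.64 and 10.9 CPM in cluster 3. Cdc25c, a phosphatase that activates Cdk1, reached only 22.2 and 20.9 CPM in cluster 4, but cluster 3 had 0.743 and 0.893 CPM. The exception was Pkmyt1, an inhibitory kinase of Cdk1, at 20.4 and 22.4 CPM in cluster 4 against 22.4 and 22.7 CPM in cluster 3.

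**Figure D1:**
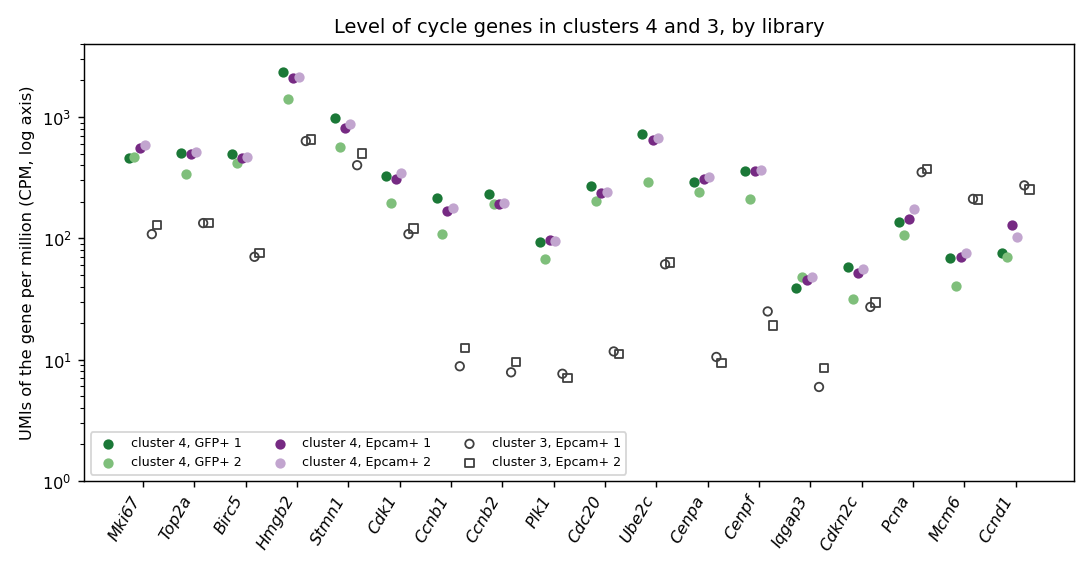
Level of each gene (CPM, log axis) in the 4 libraries of cluster 4 (filled) and in the Epcam+ libraries of cluster 3 (open). Mitotic genes such as Ccnb1 and Plk1 lay above cluster 3 in every cluster 4 library, while Pcna, Mcm6 and Ccnd1 lay below it.

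All 31 spindle and cytokinesis genes were highest in cluster 4 (median log2 ratio over cluster 3, 2.21). Aspm, a spindle pole protein, had the largest ratio to the mean of the other clusters of the 2723 genes with at least 50 CPM in cluster 4, at 55.8-fold. Its levels were 56.6, 61.9, 90.3 and 87.6 CPM in GFP+ 1, GFP+ 2, Epcam+ 1 and Epcam+ 2 of cluster 4, against 9.23 and 9.38 CPM in cluster 3. The microtubule bundler Nusap1 came next at 54.1-fold, with 201 and 211 CPM in the Epcam+ libraries of cluster 4 and 20.7 and 32.5 CPM in those of cluster 3. Hmmr, a microtubule-binding spindle protein, was at 175 and 178 CPM against 11.1 and 12.7 CPM, and Prc1, which bundles the central spindle, was at 265 and 274 CPM against 44.0 and 48.3 CPM. The tubulins were more widely shared. Tubb5 measured 1051 and 1175 CPM in cluster 4, with 845 and 799.5 CPM in tuft cluster 9, the next highest. Genes of cytokinesis stood in the same order, among them Anln, an actin-binding ring protein, at 88.0 and 94.97 CPM against 15.7 and 16.3 CPM in cluster 3, and the midbody gene Cep55 at 81.7 and 79.0 CPM against 16.6 and 15.6 CPM.

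Kinetochore and centromere genes were highest in cluster 4 in 23 of 26 cases (median log2 ratio 1.67). The centromeric histone Cenpa stood at 293, 239, 307 and 323 CPM in GFP+ 1, GFP+ 2, Epcam+ 1 and Epcam+ 2, against 10.5 and 9.38 CPM in cluster 3. Cenpe, the kinetochore motor, measured 194 and 216 CPM in the Epcam+ libraries of cluster 4 and 21.0 and 21.1 CPM in those of cluster 3, and Cenpf was at 356 and 369 CPM against 24.9 and 19.1 CPM. Of the 3 exceptions, the constitutive centromere gene Cenpk was nearly level between the isthmus clusters (44.7 and 42.1 CPM in cluster 4, 42.5 and 48.6 CPM in cluster 3). The checkpoint protein gene Bub3 was at 146 and 161 CPM in cluster 4 and was highest in tuft cluster 9, at 349 and 339 CPM. Cenpt measured 12.8 and 10.1 CPM in cluster 4, below the 12.2 CPM of cluster 9 in Epcam+ 2.

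Genes of anaphase and mitotic exit were highest in cluster 4 in 8 of 12 cases (median log2 ratio 1.51). Cdc20, which activates the anaphase-promoting complex, was at 269, 203, 235 and 242 CPM in GFP+ 1, GFP+ 2, Epcam+ 1 and Epcam+ 2, against 11.7 and 11.2 CPM in cluster 3. Ube2c was at 725, 294, 645 and 666 CPM in the same libraries, against 61.0 and 63.3 CPM in cluster 3, and GFP+ 2 again was the lowest. Cdkn3, a phosphatase of Cdk1, reached 105 and 106 CPM in the Epcam+ libraries of cluster 4, against 3.40 and 3.68 CPM in those of cluster 3. Securin (Pttg1) was one of the 4 exceptions, at 32.9 and 33.1 CPM in cluster 4 against 73.2 and 82.1 CPM in parietal cluster 8. After cluster 4, cluster 8 also had the highest level of Ccnb2, cyclin B2 (191 and 197 CPM in cluster 4, against 67.3 and 41.5 CPM), of Cenpa (98.0 and 86.0 CPM in cluster 8) and of Cdc20 (34.6 and 51.2 CPM in cluster 8). In cluster 8, 4 of the 51 Epcam+ cells held 64.7% of the UMIs of the 17 mitotic genes summed per cell below. That sum does not include Pttg1, and the share of these cells was not examined gene by gene.

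Among chromosome structure genes, 17 of 21 were highest in cluster 4 (median log2 ratio 1.18). The condensin subunit gene Smc4, needed to compact chromosomes, reached 380 and 389 CPM in the Epcam+ libraries, against 125 and 134 CPM in cluster 3, and Ncapg, of condensin I, was at 67.2 and 63.8 CPM against 19.8 and 15.7 CPM. Ncapg2, of condensin II, stood lower, with 49.1 and 55.4 CPM in cluster 4 against 56.4 and 64.95 CPM in cluster 3, and Ncapd3 of the same complex was near level, with 50.6 and 50.7 CPM against 49.5 and 56.0 CPM. The cohesin ring gene Smc3 was at 109 and 107 CPM in cluster 4, against 109 and 110 CPM in cluster 3, while the cohesin cleavage subunit Rad21 was at 229 and 226 CPM against 77.4 and 95.5 CPM. The replication-dependent histone Hist1h3c was the 1 gene of the 20 with the largest ratios (28.3- to 55.8-fold) that was in none of the 5 mitotic lists, at 85.2 and 68.2 CPM in cluster 4 against 21.97 and 18.8 CPM in cluster 3.

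The replication genes stood the other way. Only 5 of 39 were highest in cluster 4, namely the ribonucleotide reductase genes Rrm1 and Rrm2, the thymidylate synthase Tyms, the thymidine kinase Tk1 and the clamp loader Rfc5, and these were also the only 5 above cluster 3, whereas 48.3% of all genes were. The median log2 ratio over cluster 3 was -0.92. The sliding clamp Pcna stood at 137, 106, 145 and 173 CPM in GFP+ 1, GFP+ 2, Epcam+ 1 and Epcam+ 2 of cluster 4, all below the 351 and 374 CPM of cluster 3. The helicase subunit Mcm6 measured 70.4 and 76.1 CPM in the Epcam+ libraries of cluster 4, against 211 and 209 CPM in those of cluster 3, and Mcm4 was at 25.3 and 24.3 CPM against 98.0 and 93.3 CPM. The S phase cyclin Ccne2 was at 5.94 and 9.17 CPM against 32.9 and 34.9 CPM, and the origin licensing factor Cdt1 at 13.1 and 14.1 CPM against 64.9 and 69.5 CPM. When cluster 3 was left out of the comparison, 35 of the 39 replication genes were highest in cluster 4. With TMM scaling, which shifted cluster 4 against cluster 3 by only -0.07 and -0.05 on the log2 scale, the replication list kept a negative median (-1.002) and the 5 mitotic lists kept positive ones (1.12 to 2.26), as they did with UMIs per cell (-0.73, and 1.39 to 2.53).

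**Figure D2:**
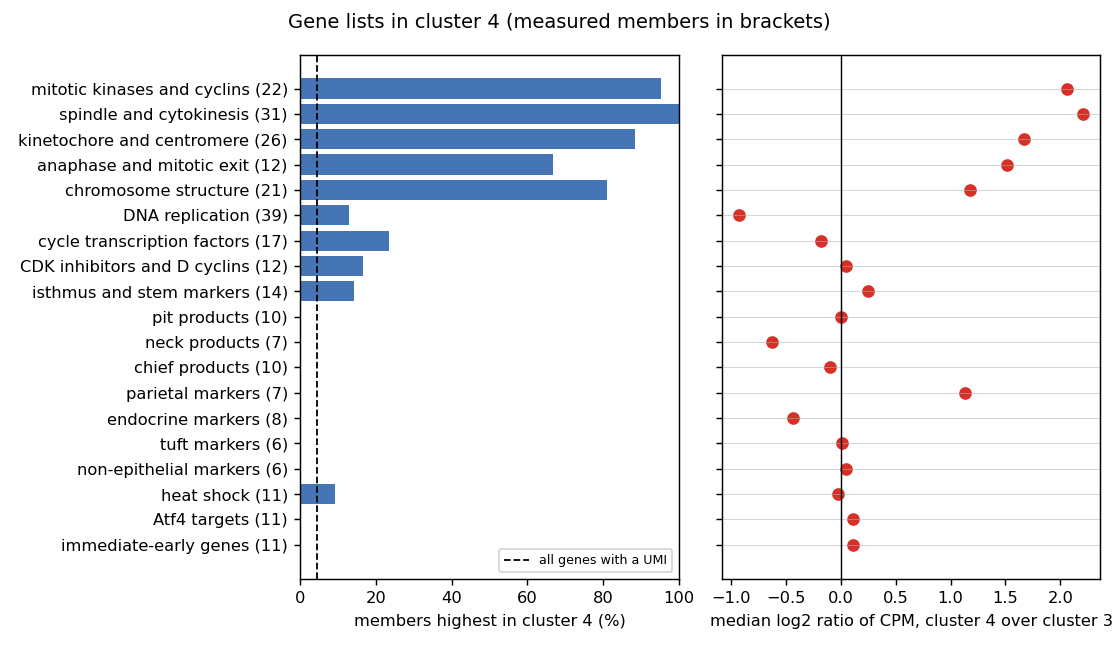
Left, percent of the measured members of each gene list that were highest in cluster 4 in both Epcam+ libraries, with a dashed line at the 4.28% of all genes. Right, the median log2 ratio of CPM, cluster 4 over cluster 3: spindle genes reached 2.21, parietal markers 1.14 and DNA replication genes -0.92.

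Of the 17 transcription factors of the cycle, 4 were highest in cluster 4. Foxm1, the activator of late cycle genes, reached 34.0 and 41.9 CPM in the Epcam+ libraries, against 7.85 and 9.60 CPM in cluster 3. E2f1, an activator of S phase genes, was at 8.91 and 7.11 CPM in cluster 4, against 40.0 and 37.3 CPM in cluster 3. B-Myb (Mybl2) was low in both, at 12.2 and 14.1 CPM in cluster 4 against 17.8 and 20.3 CPM. The list's median log2 ratio over cluster 3 was -0.18, which turned to 0.02 with UMIs per cell.

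The brakes and G1 cyclins did not move as a group, with 2 of 12 highest in cluster 4 and a median log2 ratio over cluster 3 of 0.04 (-0.01 with TMM scaling). The INK4 inhibitors Cdkn2c and Cdkn2d were the 2, Cdkn2d at 63.5 and 71.2 CPM in the Epcam+ libraries of cluster 4, against 9.44 and 12.1 CPM in those of cluster 3. The Cdk inhibitor p27 (Cdkn1b) measured 68.2 and 76.9 CPM, against 35.6 and 39.1 CPM in cluster 3 and 86.0 and 171 CPM in tuft cluster 9. Cyclin D1 (Ccnd1), which carries growth signals to the cycle in G1, was at 129 and 102 CPM in cluster 4, against 273 and 252 CPM in cluster 3. Cyclin D2 (Ccnd2) was at 161 and 129 CPM, against 350 and 273 CPM in cluster 3 and 554 and 372 CPM in neck cluster 0.

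Among the markers used for isthmus or stem cells, 2 of 14 were highest in cluster 4, Stmn1 and the GTPase-binding scaffold Iqgap3. Iqgap3 was at 38.7, 47.8, 45.1 and 47.7 CPM in GFP+ 1, GFP+ 2, Epcam+ 1 and Epcam+ 2, against 5.94 and 8.48 CPM in cluster 3. The others were level with cluster 3 or higher in other clusters. The Wnt receptor partner Lgr5 measured 1.54 and 0.646 CPM in the Epcam+ libraries of cluster 4. It was at 29.6 and 25.1 CPM in chief cluster 5 (111 and 86 UMIs). In tuft cluster 9 it was at 65.2 and 32.6 CPM, on only 25 and 8 UMIs from 18 and 13 cells. The Polycomb gene Bmi1 was at 22.2 and 23.4 CPM in cluster 4 against 18.2 and 19.5 CPM in cluster 3. The transcription factor Sox9 was at 172 and 174 CPM against 183 and 199 CPM in cluster 3. The water channel Aqp5 was lower, at 13.1 and 16.5 CPM, than in cluster 3, at 69.0 and 68.5 CPM.

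Because deeper cells yield a UMI of a gene more often, each cell was thinned to 16880 UMIs before shares of cells were compared (Epcam+ 1 and then Epcam+ 2, exact 95% intervals, which cover counting error only). Mki67 was found in 98.9% (96.1 to 99.9) and 97.0% (93.2 to 99.0) of cluster 4 cells, against 49.1% (42.2 to 56.0) and 53.3% (46.6 to 59.9) of cluster 3 cells. In chief cluster 1, which should lack it, the share was 2.04% and 0% (0 of 290 cells, with an upper bound of 1.26%). Ccnb1 separated the clusters more, at 82.6% and 86.4% in cluster 4 against 11.2% and 12.8% in cluster 3, and 0% in both libraries of cluster 1. Top2a separated them less, at 70.7% and 75.7% in cluster 4 against 56.5% and 57.7% in cluster 3. Pcna was found in 66.9% and 62.7% of cluster 4 cells, fewer than the 97.2% and 95.6% of cluster 3 cells. Lgr5, at 2.72% and 1.18% of cluster 4 cells, did not exceed its share in chief cluster 1 of 7.65% and 6.90%. Without thinning, the cluster 4 shares were 98.4% and 98.3% for Mki67, 95.3% and 96.0% for Ccnb1, 79.3% and 80.9% for Top2a and 80.8% and 79.8% for Pcna. Median depths were 46175 and 44665 UMIs in cluster 4 and 124385.5 and 104375.5 UMIs in cluster 1.

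To see how far single cells of other clusters carry the same genes, 17 mitotic genes were summed per cell as UMIs per 10000. The sum had a median of 49.3 and 25.02 in the GFP+ libraries and 37.9 and 41.5 in the Epcam+ libraries of cluster 4, with a range of 7.52 to 142 over its Epcam+ cells. In cluster 3 the medians were 1.89 and 1.91 in the Epcam+ libraries. With the 10th percentile of the Epcam+ cells of cluster 4 (18.0) as a limit, 41 of 463 Epcam+ cells of cluster 3 (8.86%) stood at or above it, as did 6 of 937 of cluster 0, 4 of 815 of cluster 2 and 4 of 51 of cluster 8 (7.84%). In clusters 1, 5, 6, 7 and 9 none did, and over all other clusters the count was 55 of 3172 (1.73%). The 17 genes are among those that form the clusters, so the separation is a description.

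Within cluster 4, the cells were ordered by at least 2 sets of genes. In the 193 cells of Epcam+ 1 and the 173 cells of Epcam+ 2, Spearman's rho between Pcna and Mcm6 was 0.65 and 0.73, between Top2a and Mki67 0.64 and 0.70, between Plk1 and Ube2c 0.73 and 0.75, and between Cdc20 and Cenpa 0.77 and 0.79. Pcna was negative with Cdc20 (-0.54 and -0.53), with Ccnb2 (-0.49 and -0.60), with Cenpa (-0.47 and -0.62) and less so with Ccnb1 (-0.33 and -0.39). It was near 0 with Plk1 (-0.03 and 0.03) and Ube2c (-0.14 and -0.02), and positive with Top2a (0.39 and 0.52) and Mki67 (0.27 and 0.30). The opposition to the replication clamp thus held for some of the mitotic genes and not for others. The lineage products formed a second pattern. Gkn1 and Tff1, secreted by pit cells, went together (0.92 and 0.90), as did Muc6, the neck mucin, and Pgc, the pepsinogen C of neck and chief cells (0.81 and 0.82). Gkn1 and Muc6 were opposed (-0.74 and -0.79). Between the patterns the values were smaller than among the lineage products, but not all were near 0. They were -0.03 and 0.01 for Ccnb1 and Gkn1 and -0.18 and -0.29 for Mki67 and Gkn1. For Top2a they were -0.29 and -0.29 with Gkn1, and 0.22 and 0.25 with Muc6. The cells of a pair share a library, its free RNA and their own depth, and counts per cell are sparse for several of these genes.

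**Figure D3:**
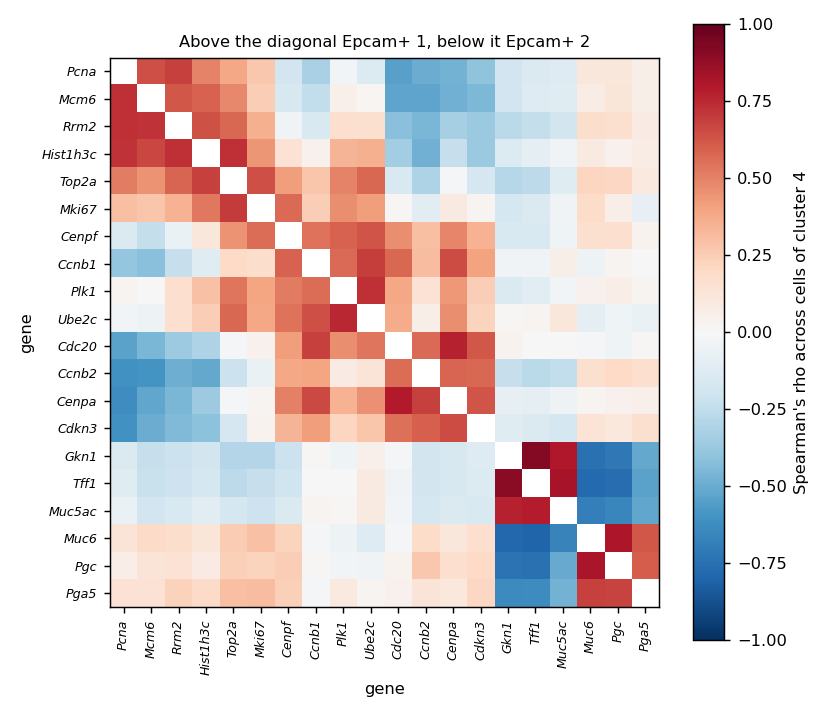
Spearman's rho across cells of cluster 4 between genes on both axes, in the 193 cells of Epcam+ 1 above the diagonal and the 173 cells of Epcam+ 2 below it. Pcna is negative with Cdc20 (-0.54 and -0.53) but near 0 with Plk1 (-0.03 and 0.03), and Gkn1 is negative with Muc6 (-0.74 and -0.79).

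The cells were therefore divided by summed products of pit and neck cells. Pit products had a limit of 31.0 UMIs per 10000, the 95th percentile of cluster 0 cells, and neck products a limit of 11.9, the 95th percentile of cluster 2 cells. The mucosal trefoil gene Tff2 was left out of the neck sum after its values were seen, since cells with pit products alone held it at 33708 and 29438 CPM. In Epcam+ 1, 120 of 193 cells (62.2%) had pit products alone, 33 (17.1%) neck products alone, 4 both and 36 neither. In Epcam+ 2 the counts were 108 (62.4%), 27 (15.6%), 2 and 36 of 173. The shares are of ranges and not of cell types, and 15, 10, 4 and 18 of these cells in Epcam+ 1 and 7, 7, 0 and 16 in Epcam+ 2 lay within 1.5-fold of a limit. In cluster 3, 55.4% and 57.4% of Epcam+ cells had pit products alone, and 32.6% and 27.0% neck products alone. Of the GFP+ cells of cluster 4, GFP+ 1 held 4 with pit and 6 with neck products among 11, while GFP+ 2 held 7 with pit and 0 with neck products among 8.

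**Figure D4:**
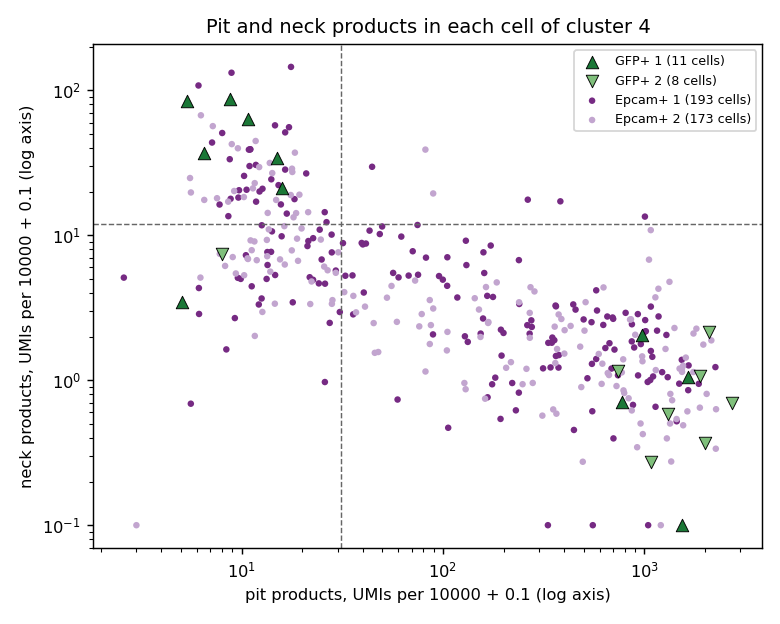
Summed pit products (horizontal) and neck products (vertical) of each cell of cluster 4, in UMIs per 10000 plus 0.1 on log axes, with dashed lines at the limits of 31.0 and 11.9. Few cells (4 in Epcam+ 1 and 2 in Epcam+ 2) lay above both limits, and 7 of the 8 cells of GFP+ 2 lay at the right.

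Both ranges carried the mitotic genes. Mki67 was at 529 and 530 CPM in cells with pit products alone (Epcam+ 1 and then Epcam+ 2) and at 577 and 768 CPM in cells with neck products alone, and Ccnb1 at 159 and 177 CPM and at 186 and 210 CPM. Stmn1 differed more between them, at 657 and 725 CPM with pit products and 1211 and 1270 CPM with neck products. Pcna was at 120 and 144 CPM with pit products and 235 and 243 CPM with neck products, and the late cycle gene Cenpf at 323 and 329 CPM and at 437 and 607 CPM. The products that set the ranges differed by construction: Gkn1 was at 9825 and 17884 CPM with pit products and 42.4 and 52.2 CPM with neck products, and Muc6 at 80.6 and 44.6 CPM and at 1809 and 1760 CPM. Pgc, which was not used, was at 14026 and 8334 CPM with pit products and 64750 and 73109 CPM with neck products. Cells with neither product had Mki67 at 640 and 678 CPM and Pgc at 27688 and 31217 CPM. Over cluster 4 as a whole, 0 of 10 measured pit products and 0 of 7 neck products were highest there, against 4.28% of all genes. In lists this short, 0 does not differ clearly from that share. Gkn1, at 9198, 37224, 6522 and 11980 CPM in GFP+ 1, GFP+ 2, Epcam+ 1 and Epcam+ 2, was below its 24826 and 31927 CPM in pit cluster 2 of the Epcam+ libraries.

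When all cells were clustered again, 236 of the 385 cells (61.3%) stayed in a mitotic cluster of 319 cells, 83 of which came from cluster 3. Of the remainder, 110 and 36 joined rebuilt clusters made mainly of pit cluster 2. The cells of Epcam+ 1 and Epcam+ 2 that stayed had Top2a at 692 and 705 CPM and those placed elsewhere at 70.3 and 56.4 CPM. Pcna was at 189 and 231 CPM in the cells that stayed and at 49.1 and 33.5 CPM elsewhere, Plk1 at 123 and 116 CPM against 42.1 and 41.9 CPM, and Mki67 at 669 and 705 CPM against 311 and 310 CPM. In contrast, Cenpa was at 311 and 319 CPM in the cells that stayed and at 299 and 332 CPM elsewhere, and Ccnb2 was lower in the cells that stayed, at 175 and 175 CPM, than elsewhere, at 228 and 249 CPM. The cells placed elsewhere thus had few Top2a and Pcna transcripts but kept Cdc20, at 263 and 239 CPM, and Cdkn3, at 118 and 120 CPM. Their median depth was 35286 and 33148 UMIs, against 56288 and 51479 UMIs in the cells that stayed. Of these cells, 55 of 76 and 46 of 66 had pit products alone, against 65 of 117 and 62 of 107 of those that stayed.

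Products of other cell types lay below their levels in their own clusters, with few cells behind some of the larger values. The smallest ratios of cluster 4 to the mean of the other clusters, among genes with at least 50 CPM in it, were those of the chief cell genes Chia1, an acidic chitinase (0.0202), Clps (0.0322) and Pla2g1b, a secreted phospholipase (0.0445). None of 10 chief products, 7 parietal, 8 endocrine, 6 tuft and 6 measured non-epithelial markers was highest in cluster 4. Over all genes the share was 4.28%, from which counts of 0 in lists this short do not differ clearly. The chief cell colipase gene Clps was at 2509, 2771, 4841 and 858 CPM in GFP+ 1, GFP+ 2, Epcam+ 1 and Epcam+ 2, against 369289 and 378824 CPM in chief cluster 1 of the Epcam+ libraries. In Epcam+ 1, 1 cell called a doublet held 78.8% of these UMIs, and without them the value was 1031 CPM. The proton pump gene Atp4a measured 268 CPM (180 UMIs) in GFP+ 1 and 0 in GFP+ 2, and 65.3 and 14.6 CPM in the Epcam+ libraries of cluster 4, against 2968 and 4073 CPM in parietal cluster 8. In Epcam+ 1 and Epcam+ 2, 5 cells held 90.6% and 93.8% of its UMIs. Summed parietal markers came to 524 and 49.5 CPM in GFP+ 1 and GFP+ 2, against 205 and 82.1 CPM in Epcam+ 1 and Epcam+ 2. In cluster 3 the sums were 80.1 and 67.0 CPM in the Epcam+ libraries. Of the 7 parietal markers, 5 were above cluster 3, with a median log2 ratio of 1.14, near the 1.18 of chromosome structure genes. Summed non-epithelial markers came to 0 and 1.77 CPM in GFP+ 1 and GFP+ 2, against 0.55 and 0.646 CPM in Epcam+ 1 and Epcam+ 2. Summed tuft markers came to 34.2 and 63.7 CPM in GFP+ 1 and GFP+ 2, against 18.6 and 16.7 CPM in Epcam+ 1 and Epcam+ 2. Among them, Dclk1 and Trpm5 had 0 UMIs in the GFP+ libraries and 1 each in Epcam+ 1 and in Epcam+ 2. Avil, the 1 tuft marker tested between sorts, was at 34.2 and 69.7 TMM-scaled CPM in GFP+ and 17.2 and 15.4 in Epcam+ cells (log2 1.61, SE 0.311, edgeR adjusted p = 0.369). The immediate-early genes, which rise quickly after a stimulus or during tissue dissociation, had 0 of 11 highest in cluster 4, and the Atf4 targets also 0 of 11. Of the heat shock genes 1 of 11, Hsp90aa1, was highest there, at 1793 and 2067 CPM against 1523 and 1727 CPM in cluster 3, but with TMM scaling none was. In lists this short, such counts do not differ clearly from the 4.28% of all genes. These counts moved with the scale, since by UMIs per cell 5 immediate-early genes, 2 Atf4 targets and 4 heat shock genes were highest in cluster 4, and without cluster 8 the heat shock count was 3.

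The sort asked which cells had kept the histone label. Cluster 4 made up 2.36% (95% exact interval 1.18 to 4.18) of GFP+ 1 and 1.80% (0.781 to 3.52) of GFP+ 2, against 11.8% (10.2 to 13.4) of Epcam+ 1 and 9.12% (7.87 to 10.5) of Epcam+ 2. The mean was 2.08% ± 0.391 in GFP+ and 10.4% ± 1.86 in Epcam+ libraries (SD, n = 2), and the 2 sorts did not overlap. In edgeR's quasi-likelihood test on cell numbers over the 10 clusters, the log2 ratio was -2.32 (SE 0.486, adjusted p = 0.000583, two-sided). An exact permutation of 2 against 2 libraries gave p = 0.333, the smallest it can give. The call rested on both Epcam+ libraries, since in edgeR the log2 ratio was -2.12 with an adjusted p of 0.277 without Epcam+ 1, and -2.49 with 0.171 without Epcam+ 2. Chief cluster 1 took 31.1% and 57.9% of the GFP+ libraries, against 12.2% and 15.5% of the Epcam+ libraries, and among the cells outside clusters 1 and 5 the log2 ratio for cluster 4 was -1.45 (edgeR, adjusted p = 0.00126).

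Cluster 3 was lower in GFP+ libraries by a like amount (log2 ratio -2.15, SE 0.482, edgeR adjusted p = 0.000808). Among isthmus cells alone, cluster 4 made up 39.3% (21.5 to 59.4) and 44.4% (21.5 to 69.2) in GFP+ 1 and GFP+ 2, against 45.3% (40.5 to 50.2) and 42.9% (38.0 to 47.9) in Epcam+ 1 and Epcam+ 2. The means were 41.9% ± 3.64 and 44.1% ± 1.68 (SD, n = 2), with an exact permutation p of 0.667 (two-sided). The groups overlapped, and with 28 and 18 isthmus cells in the GFP+ libraries a difference within these intervals was not detectable at this depth.

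**Figure D5:**
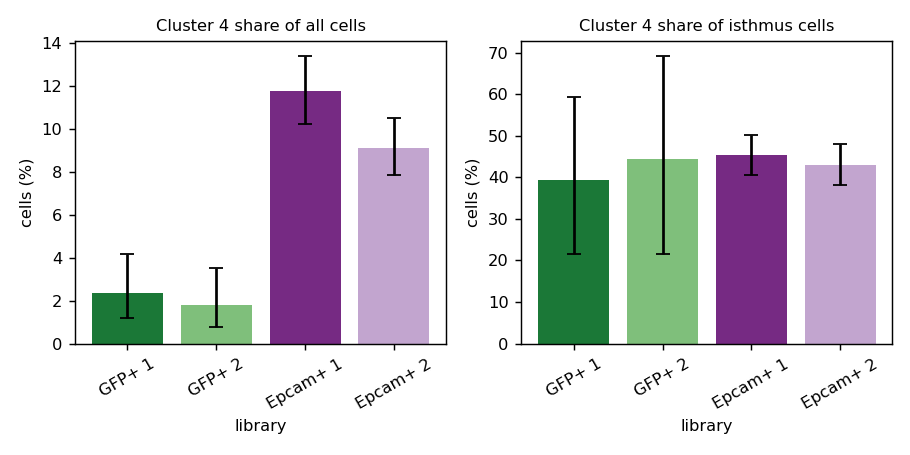
Percent of all cells (left) and of isthmus cells (right) that lay in cluster 4 in each library, with bars from 0 and exact 95% binomial intervals as error bars. GFP+ libraries held 2.36% and 1.80%, against 11.8% and 9.12% in Epcam+ libraries, while the shares of isthmus cells overlapped.

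To ask whether mitotic cells of the 2 sorts differed in expression, UMIs of cluster 4 were summed per library, scaled by TMM and tested with edgeR, so that 19 GFP+ cells were set against 366 Epcam+ cells. Of 10501 genes tested, 1 was higher (0.00952%) and 1 lower (0.00952%) in GFP+ cells at an adjusted p under 0.05, and at an unadjusted p under 0.05 they were 506 and 405. These counts were 9 to 300 higher and 2 to 130 lower with 1 library left out, the larger ones without GFP+ 1 and the smaller without Epcam+ 1. None of the tested genes of the 5 mitotic lists was called, and the lists' median log2 ratios were -0.05 to 0.06, against -0.01 over all genes. Mki67, for example, was at 459 and 513 TMM-scaled CPM in GFP+ cells and at 533 and 567 in Epcam+ cells (log2 -0.18, SE 0.135, edgeR adjusted p = 0.721). Top2a was at 509 and 372 in GFP+ cells and at 475 and 496 in Epcam+ cells (log2 -0.14, SE 0.168, adjusted p = 0.834).

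C2cd4b, a gene of the C2 calcium-dependent domain family (chr9:67759437-67760930, plus strand), was at 10.4 and 11.6 TMM-scaled CPM in GFP+ 1 and GFP+ 2, against 104 and 101 in Epcam+ 1 and Epcam+ 2. The values rest on 7 and 6 UMIs in GFP+ cells and on 985 and 815 in Epcam+ cells. Its log2 ratio was -3.23 (SE 0.243, edgeR adjusted p = 0.00796). Akr1b8, an aldo-keto reductase (chr6:34354119-34368463, plus strand), was at 107 and 103 in GFP+ cells and at 24.7 and 29.8 in Epcam+ cells, higher by 1.95 (SE 0.179, adjusted p = 0.0187). For both genes the sorts did not overlap. Both also differed with the lineage products, whose makeup differed between libraries: in the Epcam+ libraries Akr1b8 was at 37.3 and 44.8 CPM in cells with pit products alone and at 0.785 and 0 CPM in cells with neck products alone, and C2cd4b at 61.2 and 73.0 CPM and at 190 and 190 CPM. Within the cells with pit products alone, a comparison added after the values were seen, C2cd4b was at 3.45 and 11.7 CPM in the GFP+ libraries, against 61.2 and 73.0 CPM in the Epcam+ libraries (log2 -2.77, SE 0.426, edgeR adjusted p = 0.012). Akr1b8 was at 248 and 104 CPM there, against 37.3 and 44.8 CPM (log2 2.13, SE 0.288, adjusted p = 0.00614). These GFP+ values come from 4 and 7 cells, and those of C2cd4b rest on 1 and 6 UMIs. The restriction did not make the level of pit products alike between the sorts. Tff1 was at 72666 and 79588 CPM in these GFP+ cells, against 31462 and 36835 CPM in the Epcam+ cells. The sort effect was also compared with that in cluster 3, in an edgeR interaction test added after seeing the data. There 3 of 11015 genes (0.0272%) had a more negative effect in cluster 4, C2cd4b among them, and 0 (0.0%) a more positive one. Akr1b8 was not among the 3, and it was also higher in GFP+ cells of cluster 3 (log2 2.66, edgeR adjusted p = 0.00177).

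Pit products had a median log2 ratio of 0.91 over 8 tested genes, of which none passed and 4 were higher at an unadjusted p under 0.05. Over all genes tested, 506 of 10501 were higher at that limit, the share to set beside this count and those below. Tff1 was at 31394 and 78884 TMM-scaled CPM in GFP+ 1 and GFP+ 2, against 20246 and 23853 in Epcam+ 1 and Epcam+ 2 (log2 1.32, SE 0.340, edgeR adjusted p = 0.449). Within the cells with pit products alone, Tff1 was at 72666 and 79588 CPM in GFP+ 1 and GFP+ 2, against 31462 and 36835 CPM in Epcam+ 1 and Epcam+ 2, and Gkn1 at 21276 and 41102 CPM, against 9825 and 17884 CPM. The sorts did not overlap there, but both products belong to the sum that chose these cells. The neck mucin Muc6 differed widely between GFP+ 1 and GFP+ 2, at 1549 and 52.3 TMM-scaled CPM, against 353 and 332 in the Epcam+ libraries. Replication genes had a median of -0.19 over 39 genes with none passing, and immediate-early genes one of 0.28 over 11, 3 of them higher at an unadjusted p under 0.05 and none passing. Atf4 targets, genes of the integrated stress response, had a median of 0.08 over 9 with none passing. Of these, 4 were higher at an unadjusted p under 0.05, against 506 of 10501 over all genes. Among them the stress-induced factor Ddit3 was at 146 and 184 TMM-scaled CPM in GFP+ cells and at 72.6 and 74.5 in Epcam+ cells (log2 1.16, SE 0.160, edgeR adjusted p = 0.136), so the sorts did not overlap but the gene did not pass.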

How the data were processed

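The values used were raw UMI counts per gene and cell, which the authors made with Cell Ranger 3.0.2 on mm10 from single-cell 3′ libraries and deposited with each cell's cluster and library. The authors removed cells above 15% mitochondrial counts, above 8000 or below 1500 genes, or with any Ptprc or Pecam1 count. The deposited counts cover 17712 genes, 21 of them with no UMI. Counts were summed per library and cluster. The sorts were compared with edgeR 4.0.16 in R 4.3.3 (TMM, filterByExpr, quasi-likelihood test, Benjamini-Hochberg at 0.05, no block for the replicate number). The fit was also run on simulated counts with the same spread for every gene. That setting is simpler than these data, so it does not show how the test performs on them. DESeq2 1.42.0, unscaled totals, no filter, a replicate block, left-out libraries and left-out doublets (Scrublet in scanpy 1.11.5, per library) were alternatives. Intervals are 95% exact binomial (scipy 1.17.1). Cells were thinned to the 10th percentile of UMIs per cell, shallower ones left out. Gene positions are GENCODE vM21. Log2 ratios between clusters use CPM plus 1.

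Named are the markers, members of the lists, the genes with the largest and smallest ratios at 50 CPM or more, and genes past the threshold between sorts, with Neurl3 and Gadd45g chosen after their values were seen. Cells, members and lists were chosen with earlier results of these data known. Lists are described by counts and medians.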

Additional observations from a re-analysis of the deposited data

Results flagged for a closer look

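The difference between the sort effects of cluster 4 and cluster 3 was itself tested (edgeR, library as a block), and it passed for 3 of 11015 genes. C2cd4b had a difference in log2 ratio of -2.87 (SE 0.333, adjusted p = 0.0232): the log2 ratio of the sorts was -3.23 in cluster 4 and -0.41 (adjusted p = 0.352) in cluster 3, where it was at 82.0 and 103 CPM in GFP+ libraries and 116 and 129 CPM in Epcam+ libraries. C2cd4b was also lower in pit cluster 2, at 42.0 and 24.85 CPM in GFP+ and 62.8 and 56.8 CPM in Epcam+ cells, which was not tested. In neck cluster 0 it was not lower, at 271 and 421 CPM in GFP+ and 262 and 348 CPM in Epcam+ cells. Gadd45g, a stress- and growth-arrest-induced gene, had a difference of -1.77 (SE 0.244, adjusted p = 0.0424). It was at 62.5 and 84.9 CPM in GFP+ and 104 and 99.6 CPM in Epcam+ cells of cluster 4, and at 420 and 363 CPM in GFP+ and 144 and 167 CPM in Epcam+ cells of cluster 3. Neurl3, a ubiquitin ligase of the neuralized family, had a difference of -1.43 (SE 0.197, adjusted p = 0.0424), at 61.0 and 113 CPM in GFP+ and 84.4 and 67.7 CPM in Epcam+ cells of cluster 4, and at 116 and 271 CPM in GFP+ and 59.3 and 57.2 CPM in Epcam+ cells of cluster 3. For Akr1b8 the difference was -0.70 (adjusted p = 0.759), so its rise was not particular to cluster 4. In cluster 3 its log2 ratio of the sorts was 2.66 (edgeR adjusted p = 0.00177). It was at 76.0 and 45.8 CPM in GFP+ and 11.1 and 10.2 CPM in Epcam+ cells there. In pit cluster 2 it was at 125 and 63.0 CPM in GFP+ and 45.6 and 36.6 CPM in Epcam+ cells. The cluster 3 values of GFP+ rest on 17 and 10 cells.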

How the results depend on the processing

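Of 57 alternatives, 32 were taken as the same. These were fits that kept direction and side of the threshold, and counts of genes within 1.5-fold of the main count. In 22 the count of genes was larger than that. In 3, all of the cluster 4 share, the call was lost, and 0 fitted ratios reversed. C2cd4b and Akr1b8, with 10 alternatives each, were followed because they had passed the main test. The cluster 4 share lost its call among isthmus cells alone (log2 -0.10, edgeR adjusted p = 0.803). With 1 library left out, the log2 ratio ran from -2.52 to -2.12. C2cd4b ran from -3.34 to -2.77 (adjusted p 2.07e-23 to 0.012) and Akr1b8 from 1.81 to 2.13 (2.32e-19 to 0.034) over 10 alternatives each. The counts of genes called between sorts depended on the fit. Genes higher in GFP+ numbered 146 with no filter, 3 without doublets, 19 with DESeq2, 74 in cells with pit products alone and 9 to 300 with 1 library left out, and genes lower numbered 43, 2, 4, 17 and 2 to 130. Without TMM factors 2 were lower. The labels share only replicate numbers, and the deviations of same-numbered libraries from their sort means had r = 0.101 over 10501 genes. With 11 and 8 GFP+ cells, counting noise lowers this value, so it cannot show whether the libraries were paired. With a replicate block, 77 genes were higher and 12 lower, and the share's log2 ratio was -2.32 (edgeR adjusted p = 0.0256). Genes highest in cluster 4 numbered 3001 by UMIs per cell, where deeper cells count for more, and 1447 to 1453 in 1 Epcam+ library. With 8 and 11 cells, the GFP+ libraries limit every comparison of levels.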
